A study of Danio rerio with 58 samples.

Results

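The genes described here build, cap and take apart actin filaments. They are the 63 of 35117 genes in the count table whose zebrafish symbol begins with arpc, actr2, actr3, coro, daam, diaph, fmn, fhod, pfn, cfl, wasf, wasb, wasla, waslb, tmsb, capz or evl. The rule reads the symbol alone, though this set of genes was picked with earlier results of these data known, and it also takes in cflara and cflarb, which share the letters but encode regulators of cell death. Each was measured in 58 single cells of the dorsal aorta, the main trunk artery, sequenced one cell at a time with Smart-seq2, a full-length cDNA method. All cells came from zebrafish embryos that carry Tg(flk1:eGFP) and Tg(flk1:NLS-Eos), in which the promoter of flk1 (kdrl), a receptor gene of blood vessels and their precursors, drives green fluorescent protein and a nuclear Eos protein. Eos turns from green to red under light, and red cells of the aortic floor or roof were picked by hand after dissociation. The 4 groups were 12 floor cells and 10 roof cells at 28 hours post fertilization (hpf), and 18 floor cells and 18 roof cells at 21 hpf. Cells of the floor include those from which blood stem cells emerge, while the roof is not known as such a source. The labels name no embryos, so the cells of a group are 1 sample, and no test between groups was possible.

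Actin filaments grow from new nuclei and shrink again from their older ends. The Arp2/3 complex starts branches on existing filaments when WASP and WAVE proteins switch it on, and formins start and extend unbranched filaments. Profilin hands actin monomers to growing ends and thymosin beta holds monomers back. Capping protein stops growth, while cofilin and coronins help to take filaments apart. Endothelial cells use this machinery for junctions, sprouting and their shape under flow, and blood cells use it for migration and uptake. In mammals several of these proteins come in versions for different cells: coronin-1A is largely a protein of blood cells, and ARPC1B is the version of the ARPC1 subunit that prevails in blood cells.

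Depth ranged between 129849 and 8254178 counts per cell, with medians per group of 5044000 (floor, 28 hpf), 4242000 (roof, 28 hpf), 1448000 (floor, 21 hpf) and 1744000 (roof, 21 hpf). For group values each cell was therefore thinned to 200000 counts, which left out 1 shallow roof cell of 21 hpf, and levels are CPM, counts per 1000000 counts of the summed cells. Intervals are 95% and cover counting error only, and reads carry no molecular identifiers. A gene is called higher or lower in a group from a 2-fold ratio on, a threshold of size and not a test. All 4 groups are labelled endothelial. The roof cells fit that label, with 22070 CPM (28 hpf) and 26450 CPM (21 hpf) over 26 pan-endothelial markers. The floor cells summed to 1213 CPM at 28 hpf, with 15 of the 26 markers at 0, and to 6108 CPM at 21 hpf, so they are called floor cells here. Over 24 erythroid markers the floor cells held 14090 CPM at 28 hpf and 16840 CPM at 21 hpf, against 46.0 CPM and 80.9 CPM in the roof cells of those stages. Floor cells are also given by marker share. At 21 hpf, 4 cells lay within the roof cells' range of endothelial share, 8 had over 1% erythroid counts and 6 had neither. The low end of that range was set by roof cell 7 with 0.571%, and the next roof cell had 1.22%. Floor cell 18, 1 of the 4, had 1.00% and lies in the range through roof cell 7 alone. At 28 hpf, 3 cells had over 1% erythroid counts and 9 did not, of which cells 6 and 7 lay nearest below that line with 0.850% and 0.771%.

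The study asked how cells of the aortic floor differ from those of the roof. Counted by gene, most measured actin genes were lower in the floor cells, and a smaller set was higher. As a share of a cell's counts, the 63 genes together had close medians at 28 hpf, 0.950% in floor cells and 0.929% in roof cells. The medians at 21 hpf were 0.441% in floor cells and 1.39% in roof cells. At 28 hpf, 45 of the 63 genes had 10 or more reads over both groups, of which 9 were higher in floor cells and 24 lower, with a median log2 ratio of -1.17. Over all 11194 genes measured there, 35.0% were higher and 35.6% lower, with a median of 0.06. At 21 hpf, 46 were measured, 7 higher in floor cells, cflara among them, and 30 lower, with a median of -1.59, beside 32.7% higher and 25.5% lower among all 12955 genes and a median of 0.15. Genes at 0 in one group enter these medians at a bound set by 3 reads. In all, 43 genes were measured at both stages, and 19 of them were lower in floor cells at both. Higher in floor cells at both were 4: daam1b, arpc1b, coro1a and fmnl1a. How many of all genes were called alike at both stages was not counted, so these joint counts stand without a background. Of the remaining genes, 2 were measured at 28 hpf only, 3 at 21 hpf only and 8 at neither, and 7 (actr3b, cflarb, daam2, fhod3a, fmn1, fmn2b and tmsb) had no read in any cell. With the erythroid-rich floor cells left out, the median at 21 hpf was -1.01.

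**Figure D1:**
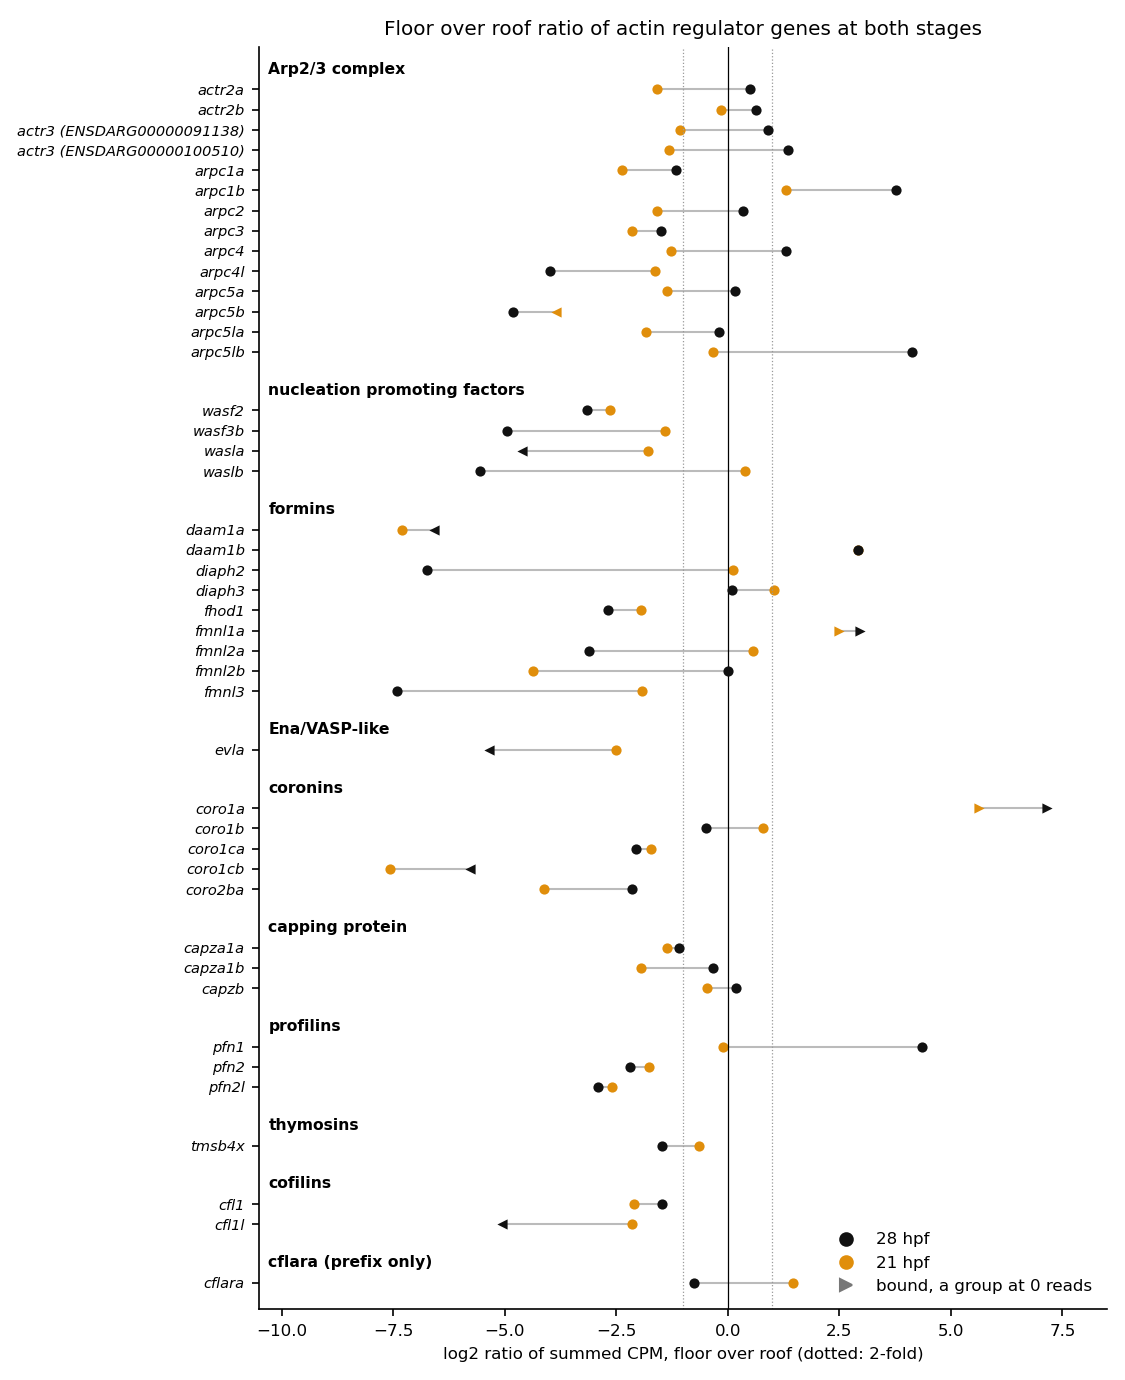
Each row is an actin gene measured at both stages. The x axis is the log2 ratio of summed CPM, floor over roof, in black for 28 hpf and orange for 21 hpf, with triangles where a group was at 0 and the value is a bound. Most points lie left of 0, and coro1a, arpc1b and daam1b lie right of it at both stages.

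The clearest split lay between a few genes that were read almost only in roof cells and a few that were read mainly in floor cells. Coro1cb (ENSDARG00000021193), one of 2 zebrafish genes for coronin-1C, a coronin found in many tissues of mammals, had a per-cell lowest, median and highest level of 0, 0 and 0.198 CPM in floor cells at 28 hpf. In roof cells of 28 hpf these were 0, 36.7 and 287 CPM. At 21 hpf they were 0, 0 and 20.0 CPM in floor cells and 0, 111 and 694 CPM in roof cells. Of the roof cells, 6 of 10 at 28 hpf and 13 of 18 at 21 hpf lay above the highest floor cell of their stage, and 4 and 2 roof cells had no coro1cb read. The summed level was 0 CPM in floor cells, where 3 reads are worth 1.25 CPM, and 68.5 CPM (57.5 to 81.0) in roof cells at 28 hpf. Against that limit it was at least 54.8-fold lower in floor cells, or 36.4-fold without roof cell 7. In the younger cells the sum was 0.833 CPM (0.172 to 2.44) in floor cells and 158 CPM (145 to 172) in roof cells, 190-fold lower in floor cells (64.6 to 924). With 5 or more thinned reads counted as detection, 0 of 12 floor cells at 28 hpf and 0 of 18 at 21 hpf had coro1cb, which allows shares of up to 25% and 16.7%. It was detected in 6 of 10 roof cells at 28 hpf and 12 of 17 at 21 hpf.

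Daam1a (ENSDARG00000015059), one of 2 zebrafish genes for DAAM1, a formin that acts in Wnt planar polarity signalling in vertebrates, had 0 CPM in every floor cell at 28 hpf. In roof cells of that stage the lowest, median and highest levels were 4.17, 137 and 263 CPM, so the groups did not overlap. At 21 hpf these levels were 0, 0 and 19.1 CPM in floor cells and 0, 90.4 and 412 CPM in roof cells. There 11 of 18 roof cells exceeded every floor cell, and 7 had no read. Summed, daam1a was at least 96.4-fold lower in floor cells at 28 hpf, with 0 CPM against 120.5 CPM (106 to 137) in roof cells. The ratio at 21 hpf was 157-fold lower (53.4 to 765), with 0.833 CPM in floor cells and 131 CPM (119 to 144) in roof cells. Daam1a was detected in 8 of 10 roof cells at 28 hpf and 11 of 17 at 21 hpf, and both daam1a and coro1cb in 5 of 10 and 9 of 17.

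In the few floor cells with an endothelial marker share, little or nothing was read of these genes. In those 4 cells of 21 hpf, coro1cb was 0 throughout and daam1a reached 19.1 CPM in cell 16 alone. Both genes were detected in 0 of 4 cells, which at so few cells allows shares of up to 75%. The shares of roof cells at 21 hpf, 70.6% for coro1cb and 64.7% for daam1a, lie under that limit, so a lower share is not shown. The formin gene fmnl3, known for vessel lumen formation and angiogenesis, behaved otherwise. Its lowest, median and highest levels in these 4 cells were 18.2, 222 and 491 CPM, against 0, 218 and 834 CPM in the roof cells of 21 hpf. In the 8 erythroid-rich floor cells of 21 hpf fmnl3 did not exceed 0.691 CPM, and in the 6 others it reached 27.1 CPM.

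**Figure D2:**
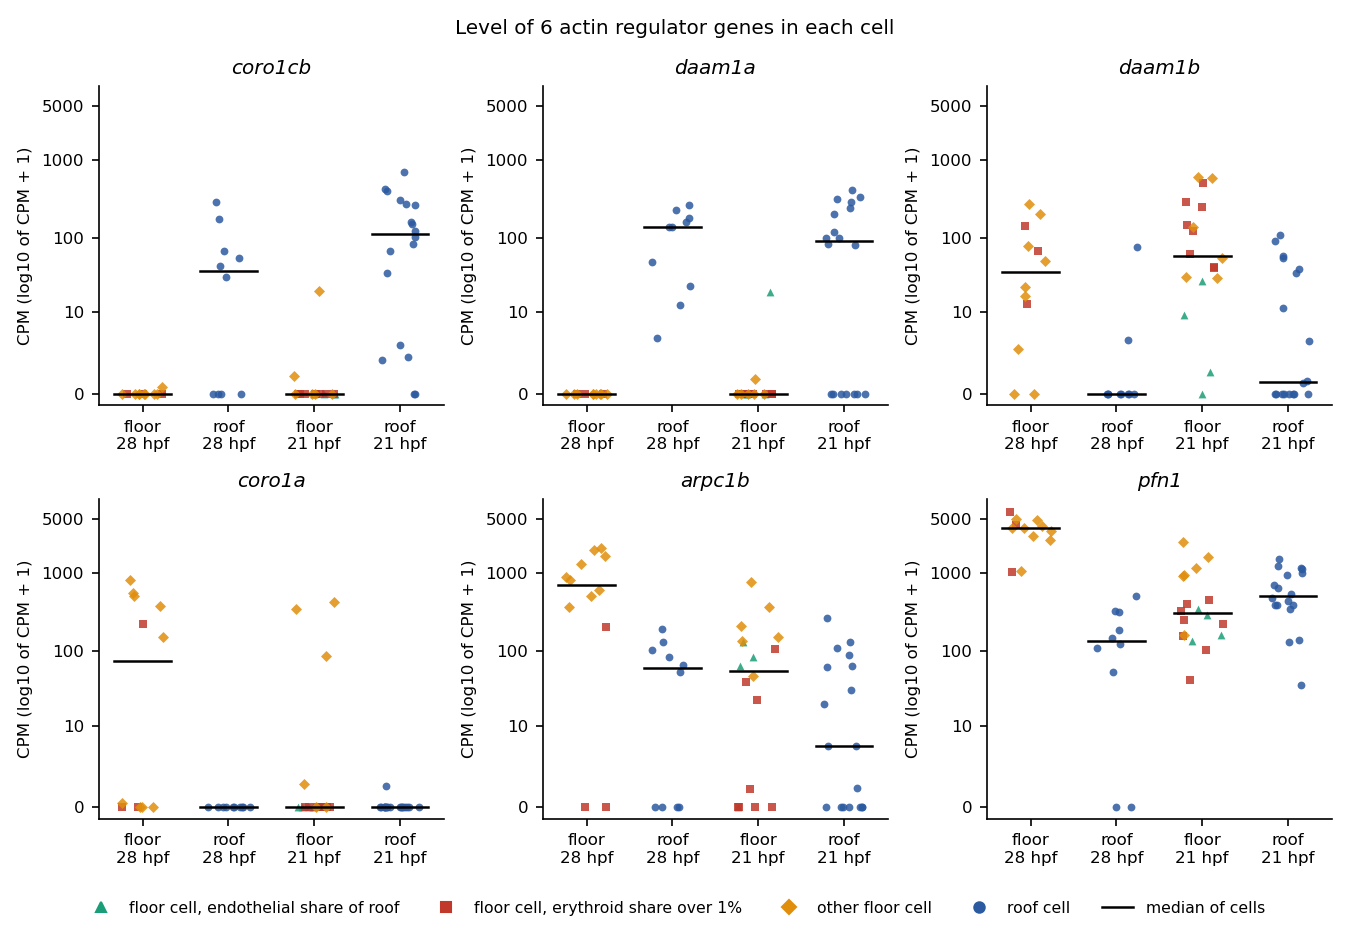
Each point is 1 cell, with groups from left to right as floor 28 hpf, roof 28 hpf, floor 21 hpf and roof 21 hpf. The y axis is CPM plus 1 on a log10 scale, the line is the group's median, and colours give the marker share of floor cells. Coro1cb and daam1a are at or near 0 in floor cells, coro1a is at or near 0 in roof cells, and the pfn1 levels of the groups are apart at 28 hpf only.

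Coro1a, arpc1b and pfn1 stood on the other side at 28 hpf. Coro1a (ENSDARG00000054610), whose mammalian counterpart is largely restricted to blood cells, had a lowest, median and highest level of 0, 74.7 and 825 CPM in floor cells at 28 hpf and 0 CPM in all 10 roof cells. At 21 hpf these were 0, 0 and 424 CPM in floor cells, while the highest roof cell had 0.836 CPM. Floor cells were divided: 5 of 12 at 28 hpf and 14 of 18 at 21 hpf had no coro1a read. Summed, it had 212.5 CPM (195 to 232) in floor cells and 0 CPM in roof cells at 28 hpf, at least 142-fold higher in floor cells against the limit of 3 reads, 1.5 CPM. Its sum at 21 hpf was 43.9 CPM (37.3 to 51.3) in floor cells and 0 CPM in roof cells, at least 49.7-fold higher in floor cells against a limit of 0.882 CPM. Leaving out floor cell 4 lowered that bound to 27.7-fold, and leaving out floor cell 5 to 30.3-fold. Coro1a was detected in 6 of 12 and 3 of 18 floor cells. It was detected in 0 of 10 roof cells at 28 hpf and 0 of 17 at 21 hpf, which allows up to 30.0% and 17.6%.

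The cells with coro1a fell in a part of the floor cells. At 21 hpf they were cells 1, 4 and 5, all 3 among the 6 floor cells with neither marker share, and no read fell in the cells of endothelial or of high erythroid share. At 28 hpf it was detected in 5 of the 9 floor cells without high erythroid share and in cell 10 of the 3 with it. Coro1a and coro1cb were not detected together in any of the cells. Each cell with coro1a also had arpc1b detected, 6 of 6 at 28 hpf and 3 of 3 at 21 hpf, while arpc1b was detected without coro1a in 4 and 8 floor cells. All of these coro1a cells but cell 10 lay in ranges of floor cells where arpc1b was detected throughout, in 9 of 9 at 28 hpf and 6 of 6 at 21 hpf. No link between the genes is read from this. Some myeloid markers were higher in floor cells as well. The 15 listed, without coro1a, summed to 1524 CPM in floor cells and 109 CPM in roof cells at 28 hpf, and to 1454 CPM in floor cells and 263 CPM in roof cells at 21 hpf. Cebpa, cebpb and mpx held most of the floor sums, while lcp1 had 57.5 CPM in floor cells and 38.0 CPM in roof cells at 28 hpf, and 21.9 CPM in floor cells and 64.1 CPM in roof cells at 21 hpf. In floor cells of 28 hpf 9 of the 15 were at 0. Of the listed markers, mpeg1.1, marco, csf1ra, npsn and mmp13a were at 0 in all 4 groups, and lyz had 0.278 CPM in floor cells of 21 hpf only. The remaining listed markers are not given singly here. What part myeloid cells had in the coro1a level was not tested.

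Arpc1b (ENSDARG00000027063) encodes a variant of the propeller subunit of the Arp2/3 complex. Its lowest, median and highest levels at 28 hpf were 0, 711 and 2095 CPM in floor cells and 0, 59.0 and 192 CPM in roof cells. At 21 hpf they were 0, 54.5 and 763 CPM in floor cells and 0, 5.10 and 262 CPM in roof cells. At 28 hpf 10 of 12 floor cells exceeded every roof cell, and at 21 hpf only 2 of 18 did, so the groups overlapped widely at the earlier stage. The summed level of 872 CPM (835 to 910) in floor cells was 13.7-fold higher (11.5 to 16.6) than the 63.5 CPM (52.9 to 75.6) in roof cells at 28 hpf. At 21 hpf 118 CPM (107 to 130) in floor cells and 47.7 CPM (40.6 to 55.6) in roof cells gave a log2 ratio of 1.31, which was 0.74 without floor cell 5 and 2.04 without the erythroid-rich floor cells.

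Pfn1 (ENSDARG00000088091), a profilin gene, was read in nearly all cells, and by the 2-fold threshold it was higher in floor cells at 28 hpf and not at 21 hpf, a difference between stages that was not tested. At 28 hpf its lowest, median and highest levels were 1029, 3837 and 6082 CPM in floor cells and 0, 135 and 513 CPM in roof cells, without overlap. At 21 hpf they were 42.0, 307 and 2522 CPM in floor cells and 35.8, 514.5 and 1507 CPM in roof cells, and 2 of 18 floor cells lay above the highest roof cell. Summed, pfn1 had 3652 CPM (3576 to 3730) in floor cells and 180 CPM (162 to 200) in roof cells at 28 hpf, 20.3-fold higher in floor cells (18.3 to 22.6). Its sums at 21 hpf were 552 CPM (528 to 577) in floor cells and 595 CPM (569 to 621.5) in roof cells, a log2 ratio of -0.11. Within the floor cells of 21 hpf the median was 226 CPM in the 4 cells of endothelial share, 236 CPM in the 8 erythroid-rich cells and 1056 CPM in the 6 others. At 28 hpf the median was 4176 CPM in the 3 erythroid-rich floor cells and 3831 CPM in the 9 others. Those 3 cells lay far apart. Summed over the profilin genes they ran from 1114 CPM in cell 11, which had the highest erythroid share, to 6189 CPM in cell 10. In the 9 others these sums ran from 1369 CPM to 5045 CPM.

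At 28 hpf pfn1 was the 1 of 45 measured actin genes whose floor cells all lay above all roof cells, beside 0.250% of all measured genes. For 3 genes, daam1a, diaph2 and wasf3b, all roof cells lay above all floor cells, beside 1.38% of all genes. No actin gene separated the groups so at 21 hpf. The share among all genes was not counted for that stage, so no difference between stages is read from this.

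**Figure D3:**
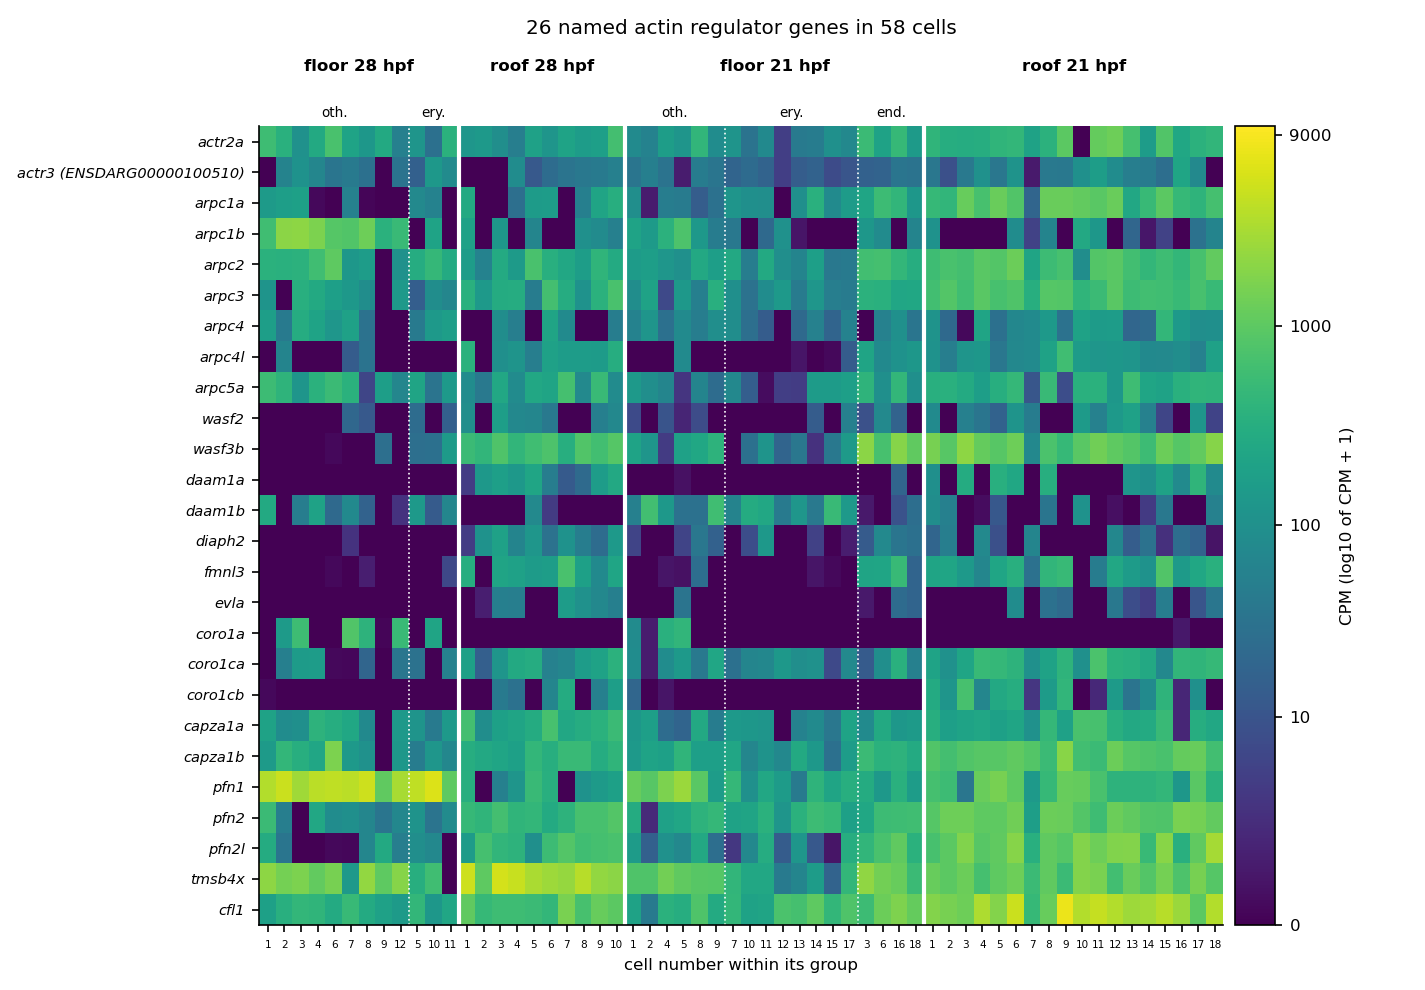
Rows are actin genes named by a rule of size, columns are the 58 cells, and colour is log10 of CPM plus 1. Cells run from floor 28 hpf and roof 28 hpf to floor 21 hpf and roof 21 hpf, and floor cells are split into those of endothelial share (end.), those over 1% erythroid counts (ery.) and others (oth.). Fmnl3 and wasf3b are read in the floor cells of endothelial share at 21 hpf, where coro1cb is not.

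The WASP and WAVE genes, whose proteins switch on the Arp2/3 complex, were lower in floor cells, most of all at 28 hpf. Summed over the 7 genes per cell, the lowest, median and highest levels at 28 hpf were 0, 10.4 and 168 CPM in floor cells and 396, 748 and 985 CPM in roof cells, without overlap. At 21 hpf they were 16.6, 179 and 2057 CPM in floor cells and 120, 1133 and 2170 CPM in roof cells. All 4 measured genes were lower in floor cells at 28 hpf and 3 of 4 at 21 hpf, with none higher at either stage. Among all genes 35.6% were lower at 28 hpf and 25.5% at 21 hpf, and 4 genes are few to set beside these shares. Wasf3b, a WAVE3 gene, made up most of these reads and separated the groups at 28 hpf on its own. How often sums of other genes separate the groups was not counted. Its levels at 28 hpf were 0, 0 and 152 CPM in floor cells and 317, 608 and 875 CPM in roof cells, and the summed ratio was 30.8-fold lower (23 to 42.1), or 73.6-fold without floor cell 11. At 21 hpf they were 0, 136 and 2043 CPM in floor cells and 72.2, 970 and 2081 CPM in roof cells, and the sum was 2.66-fold lower (2.50 to 2.83) in floor cells.

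The level of wasf3b within the floor at 21 hpf went with marker share. Its median was 1473 CPM in the 4 floor cells of endothelial share, 33 CPM in the 8 erythroid-rich cells and 200 CPM in the 6 others. The log2 ratio of floor over roof was -3.47 without the cells of endothelial share and -0.64, under the 2-fold threshold, without the erythroid-rich cells. Wasf2, a WAVE2 gene that in mice is needed for vessel growth, was 8.93-fold lower (5.28 to 16.1) in floor cells at 28 hpf, with 6.67 CPM in floor cells and 59.5 CPM in roof cells. The earlier ratio was 6.24-fold lower (4.41 to 9.05), with 10.6 CPM in floor cells and 65.9 CPM in roof cells of 21 hpf. The N-WASP genes were low throughout. Wasla had 0 CPM in floor cells and 30.5 CPM in roof cells at 28 hpf, and 5.83 CPM and 20.3 CPM in those of 21 hpf. Waslb had 0.417 CPM in floor cells and 19.5 CPM in roof cells at 28 hpf, and 13.9 CPM and 10.6 CPM in those of 21 hpf. Wasb, a WASP gene, which in mammals belongs to blood cells, had 3.33 CPM in floor cells of 28 hpf and 0 CPM in the other 3 groups.

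Most subunit genes of the Arp2/3 complex were lower in floor cells at 21 hpf. There, beside 25.5% lower and 32.7% higher among all genes, 11 of 14 measured genes were lower and 1, arpc1b, was higher. Their median log2 ratio was -1.48. At 28 hpf 4 were lower (arpc1a, arpc3, arpc4l and arpc5b) and 4 higher (arpc1b, arpc4, arpc5lb and actr3, ENSDARG00000100510), with a median of 0.42, shares that do not exceed the 35.6% lower and 35.0% higher among all genes. Arpc3, an accessory subunit, had a lowest, median and highest level at 21 hpf of 6.73, 111 and 371 CPM in floor cells and 316, 610 and 948 CPM in roof cells. There 17 of 18 roof cells lay above the highest floor cell, and the sum was 4.41-fold lower (4.01 to 4.86) in floor cells. Arpc2, a core subunit, was 3.03-fold lower in floor cells at 21 hpf (2.79 to 3.28), with 224 CPM in floor cells and 676.5 CPM in roof cells. Actr2a, which encodes the actin-like subunit Arp2, was 3.01-fold lower (2.73 to 3.32), with 156 CPM in floor cells and 470 CPM in roof cells. Without the 4 floor cells of endothelial share, the log2 ratios of arpc2 and actr2a were -2.23 and -2.20. At 28 hpf arpc2 and actr2a were within 2-fold, with 343 CPM and 272 CPM in floor cells and 270.5 CPM and 192 CPM in roof cells.

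Variants of the same subunit took opposite sides. Arpc1a, the other gene for the propeller subunit, was 5.18-fold lower (4.71 to 5.70) in floor cells at 21 hpf, with 146 CPM in floor cells and 755 CPM in roof cells. Of the reads on arpc1b and arpc1a together, arpc1b held 93.7% (92.6 to 94.7) in floor cells and 32.6% (27.9 to 37.5) in roof cells at 28 hpf. The share at 21 hpf was 44.7% (41.5 to 48.0) in floor cells and 5.94% (5.08 to 6.89) in roof cells. Within the floor at 21 hpf the share was 17.8% in the cells of endothelial share, 13.9% in the erythroid-rich cells and 90.9% in the others. The erythroid-rich floor cells of that stage therefore read mostly arpc1a. At 28 hpf the share was 61.8% in the erythroid-rich floor cells, on 42 and 26 reads, and 94.7% in the others.

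Arpc4 and arpc4l, 2 genes for the ARPC4 subunit, divided in the same way at 28 hpf. Arpc4 held 92.7% (89.4 to 95.3) of their reads in floor cells and 24.6% (20.6 to 29.0) in roof cells. Its share at 21 hpf was 59.9% (54.0 to 65.5) in floor cells and 54.1% (50.4 to 57.7) in roof cells, intervals that overlap. Within the floor at 21 hpf arpc4 held 25.9% in the cells of endothelial share, 96.2% in the erythroid-rich cells and 84.9% in the others. Arpc4l was 3.08-fold lower in floor cells at 21 hpf (2.49 to 3.83), with 32.8 CPM in floor cells and 101 CPM in roof cells. That log2 ratio of -1.62 was -3.97 without the floor cells of endothelial share and -0.80 without the erythroid-rich ones. Another pair, arpc5a and its paralogue arpc5lb, rested on 1 cell: 72.4% of the arpc5lb reads of floor cells at 28 hpf lay in cell 11, the floor cell of that stage with the highest erythroid share. Arpc5lb was 17.5-fold higher in floor cells there, or 5.27-fold without that cell. How reads that match both copies of such pairs were assigned is not given in the sources used here, so these shares are uncertain to that extent.

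**Figure D4:**
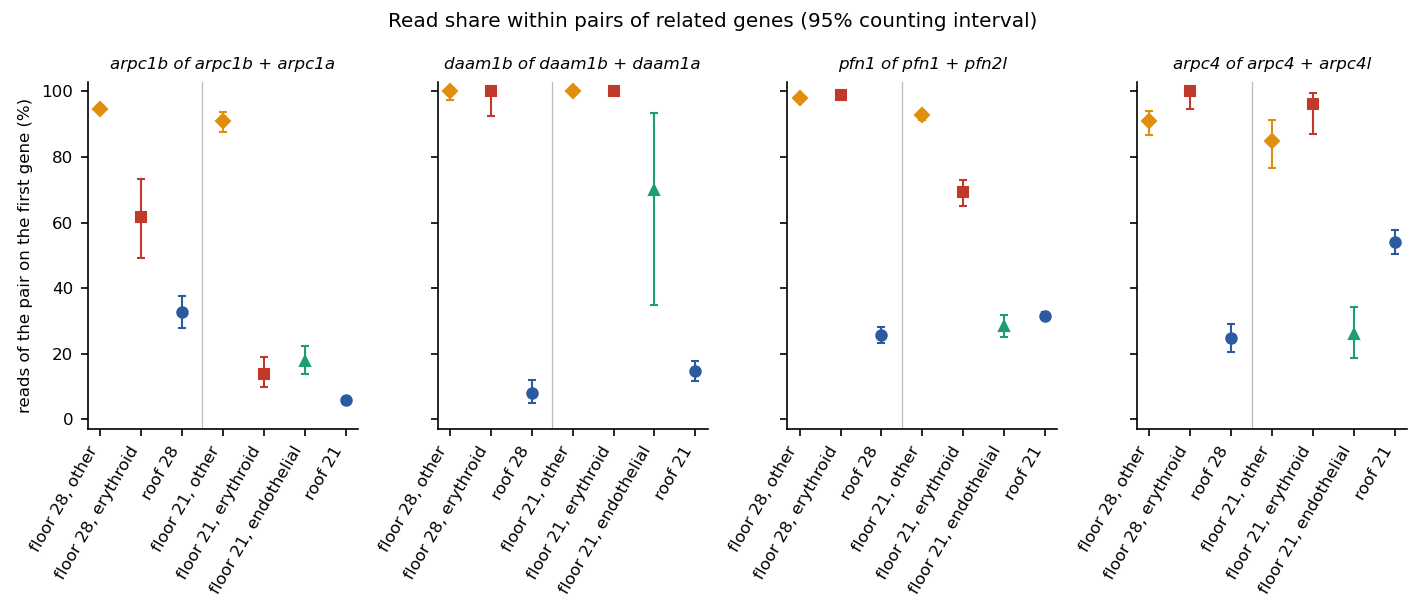
Each panel is a pair of related genes, and the y axis is the percentage of the pair's thinned reads that fall on the first gene, with 95% counting intervals. The x axis gives the groups and the floor cells by marker share. In floor cells of 28 hpf daam1b, pfn1 and arpc4 hold over 90% in the erythroid-rich cells and in the others. Arpc1b holds 61.8% in those erythroid-rich cells and 94.7% in the others. In roof cells of 28 hpf each of these genes holds under 33%.

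Among the formins the 2 DAAM1 genes divided between the groups. Daam1b (ENSDARG00000009689) had a lowest, median and highest level at 28 hpf of 0, 35.8 and 272 CPM in floor cells and 0, 0 and 75.7 CPM in roof cells. At 21 hpf these were 0, 57.4 and 611 CPM in floor cells and 0, 0.417 and 108 CPM in roof cells. Floor cells above the highest roof cell numbered 4 of 12 at 28 hpf and 8 of 18 at 21 hpf. Summed, daam1b was 7.51-fold higher in floor cells at 21 hpf (5.91 to 9.66), with 168 CPM in floor cells and 22.4 CPM in roof cells. At 28 hpf it was 7.54-fold higher, with 79.2 CPM in floor cells and 10.5 CPM in roof cells, and 47.5-fold without roof cell 5, which held most of the roof reads. Of the reads on both genes, daam1b held 100% (98.1 to 100) in floor cells and 8.02% (5.03 to 12) in roof cells at 28 hpf. The younger floor cells had 99.5% (98.6 to 99.9) on daam1b and the younger roof cells 14.6% (11.7 to 17.9). In the erythroid-rich floor cells of 21 hpf daam1b was detected in 8 of 8, with 40.1, 133.5 and 512 CPM, and in those of endothelial share its median was 5.06 CPM.

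Fmnl3 was 172-fold lower in floor cells at 28 hpf (58.5 to 837), with 1.25 CPM in floor cells and 215 CPM in roof cells, and 9 of 10 roof cells exceeded every floor cell. At 21 hpf 56.7 CPM in floor cells and 216 CPM in roof cells made it 3.81-fold lower, or 7.13-fold without floor cell 16 of endothelial share. Diaph2, a diaphanous formin, had levels at 28 hpf of 0, 0 and 2.81 CPM in floor cells and 4.17, 85.2 and 195 CPM in roof cells. Summed it was 108-fold lower in floor cells (29.5 to 899), a ratio that rests on few floor reads and was at least 66.0-fold without floor cell 7. At 21 hpf diaph2 did not differ by 2-fold, with 22.8 CPM in floor cells and 20.9 CPM in roof cells. Evla, an Ena/VASP-like gene whose protein guards growing filament ends, was 0 in every floor cell of 28 hpf and 51.0 CPM (41.6 to 61.9) in roof cells, at least 40.8-fold lower in floor cells. Fmnl1a, whose mammalian counterpart FMNL1 is a blood cell formin, had 11.7 CPM in floor cells of 28 hpf and 5.00 CPM in those of 21 hpf, and 0 CPM in both roof groups. Its bounds rest on few cells: at least 7.78-fold higher in floor cells at 28 hpf, but 2.42-fold without floor cell 2, and 5.67-fold at 21 hpf, but 2.33-fold without floor cell 8.

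Beside coro1a and coro1cb, the coronin gene coro1ca was lower in floor cells at both stages. It was 4.17-fold lower (3.33 to 5.27) at 28 hpf, with 41.3 CPM in floor cells and 172 CPM in roof cells. The ratio at 21 hpf was 3.29-fold lower (2.90 to 3.73), with 92.5 CPM in floor cells and 304 CPM in roof cells. Unlike its paralogue coro1cb it was detected in floor cells, in 7 of 12 at 28 hpf and 14 of 18 at 21 hpf. Coro2ba was low, with 4.17 CPM in floor cells and 18.5 CPM in roof cells at 28 hpf, and with 4.72 CPM in floor cells and 82.4 CPM in roof cells at 21 hpf. Its ratios rest on single cells: 4.44-fold lower in floor cells at 28 hpf, but 2.0-fold without roof cell 10 and 10.2-fold without floor cell 7, and 17.4-fold at 21 hpf, but 93.3-fold without floor cell 16. The other coronin genes did not exceed 21.9 CPM in any group.

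Of the profilins, pfn2 and pfn2l were lower in floor cells at both stages. Pfn2, the zebrafish profilin 2 gene, was 4.57-fold lower (3.99 to 5.25) in floor cells at 28 hpf, with 112 CPM in floor cells and 510 CPM in roof cells. At 21 hpf it was 3.41-fold lower (3.18 to 3.65), with 312 CPM in floor cells and 1061 CPM in roof cells. Its relative pfn2l was 7.51-fold lower (6.37 to 8.90) at 28 hpf, with 69.6 CPM in floor cells and 522.5 CPM in roof cells. At 21 hpf pfn2l was 6.05-fold lower (5.60 to 6.54), with 215 CPM in floor cells and 1299 CPM in roof cells, and its log2 ratio of -2.60 was -3.71 without the floor cells of endothelial share. Thus pfn1 held 98.1% of the pfn1 and pfn2l reads in floor cells and 25.6% in roof cells at 28 hpf, and 72.0% in floor cells and 31.4% in roof cells at 21 hpf. Summed over all 3 profilins per cell, the median at 28 hpf was 4133 CPM in floor cells and 1141 CPM in roof cells, while at 21 hpf it was 940 CPM in floor cells and 3159 CPM in roof cells.

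Cfl1, the cofilin 1 gene, had a lowest, median and highest level at 21 hpf of 42.5, 501 and 1678 CPM in floor cells and 480, 2725 and 7670 CPM in roof cells. There 13 of 18 roof cells exceeded every floor cell, and the sum was 4.28-fold lower (4.08 to 4.48) in floor cells. At 28 hpf it was 2.77-fold lower (2.54 to 3.03), with 298 CPM in floor cells and 826.5 CPM in roof cells, and 8 of 10 roof cells exceeded every floor cell. Of the other cofilin genes, cfl1l was lower in floor cells at both stages. Cfl2 passed the 2-fold threshold the other way at 28 hpf, higher in floor cells, on only 21 thinned reads over all 4 groups. Tmsb4x, the thymosin beta 4 gene, had levels at 28 hpf of 0, 1271 and 2282 CPM in floor cells and 1014, 2874 and 5534 CPM in roof cells, and was 2.78-fold lower (2.66 to 2.91) in floor cells. At 21 hpf it was within 2-fold, with 692 CPM in floor cells and 1090 CPM in roof cells. Within the floor of 21 hpf the median of tmsb4x was 1295 CPM in cells of endothelial share, 206 CPM in the erythroid-rich cells and 899 CPM in the others. Of the capping protein genes, capza1b was 3.85-fold lower (3.55 to 4.18) and capza1a 2.58-fold lower (2.30 to 2.88) in floor cells at 21 hpf, and capzb was within 2-fold at both stages.

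At 28 hpf some of these ratios depended on which cells of a title series entered. The labels carry a further part before the cell number, 1, 2 or 3 in roof cells and M8 to M12 in floor cells, and since no part is shared, title part and aortic region cannot be told apart. Without parts M12 and 3, which leave 6 floor and 5 roof cells, cfl1 had a log2 ratio of -0.79 and arpc3 of -0.55 in place of -1.47 and -1.50, pfn2 of -1.57 in place of -2.19 and coro1ca of -1.39 in place of -2.06, while coro1cb had a bound of -3.07 and evla of -3.38. For 1 floor cell the title reads D12 and the description M12, and it was counted with M12. Coro1cb had a median of 66.2 CPM in the 5 roof cells of part 3, 15.3 CPM in the 4 of part 2 and 0 CPM in the 1 cell of part 1. Coro1a had a median of 299 CPM in the 6 floor cells of part M12, 1 of them at 0. In parts M8 and M9 1 of 2 cells each was at 0, and the single cells of M10 and M11 were at 0. Without parts M12 and 3 the bound of coro1a was 5.49 in place of 7.15, and that of daam1a -5.84 in place of -6.59. With fewer cells the limit of 3 reads is also worth more CPM.

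**Figure D5:**
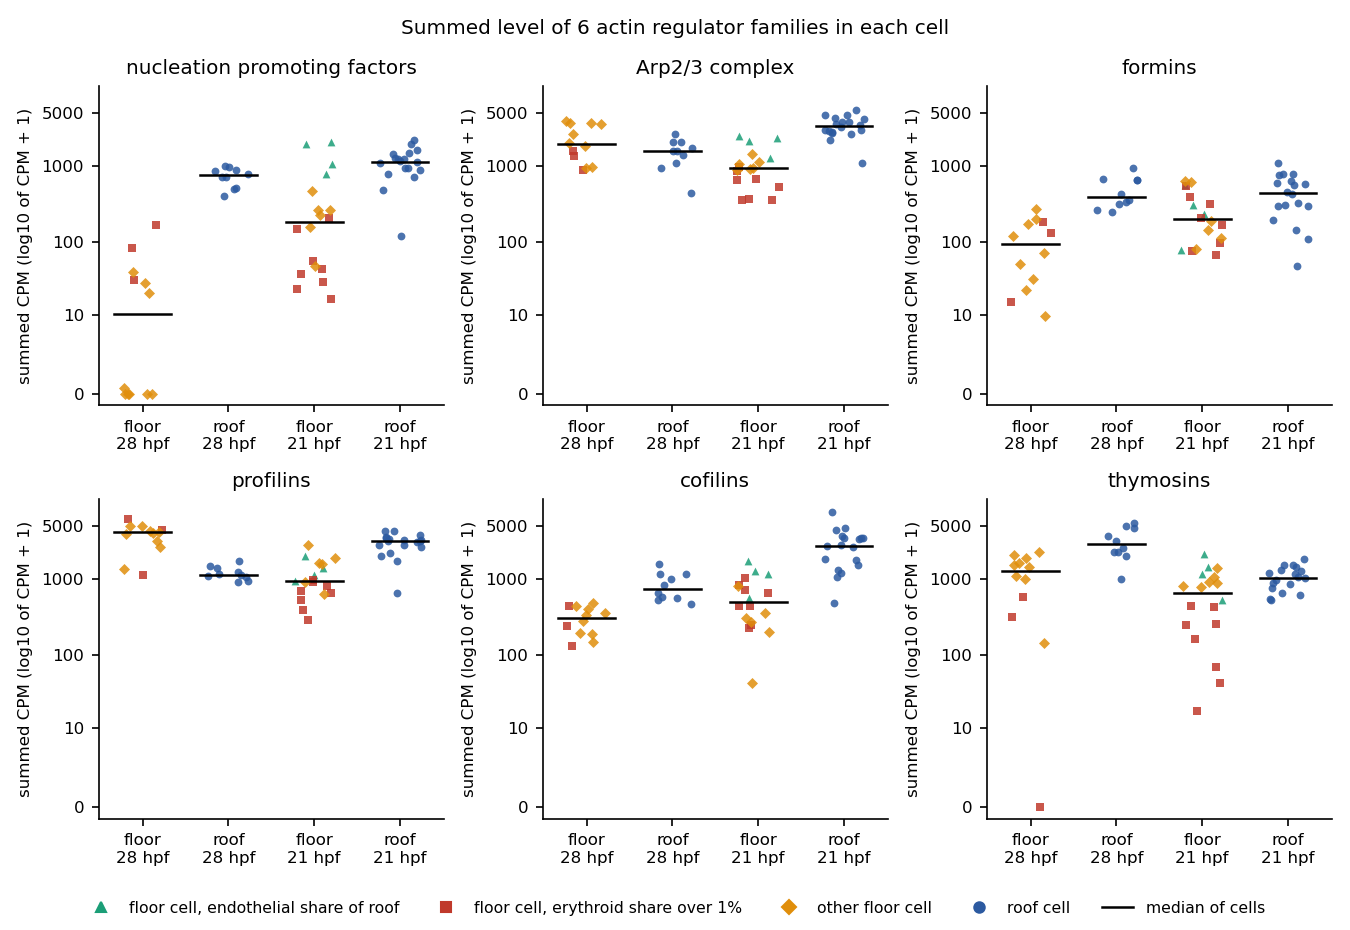
Each point is 1 cell and the y axis is the summed CPM of a gene family, with groups from left to right as floor 28 hpf, roof 28 hpf, floor 21 hpf and roof 21 hpf, and the line at the median. The WASP and WAVE sums, mostly reads of wasf3b, do not overlap between the groups at 28 hpf, and profilin sums are highest in floor cells of 28 hpf.

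The comparison of stages asked how levels in each region differed between cells of 28 hpf and of 21 hpf. The labels of the stages are built differently, with title parts at 28 hpf only. Stage and any difference in how the cells were collected therefore cannot be told apart. Each group here also entered a comparison of floor with roof above, so these ratios share its values. In floor cells 43 actin genes were measured, 12 of them higher at 28 hpf and 16 lower, with a median log2 ratio of -0.17, beside 16.7% higher and 42.0% lower among all genes and a median of -0.55. With the size factors of DESeq2 the split turned to 14 higher and 13 lower. That median was 0.56 without the 4 floor cells of endothelial share at 21 hpf. Arpc1b was 7.38-fold higher at 28 hpf (6.65 to 8.21), pfn1 6.61-fold higher (6.30 to 6.95) and arpc4 2.61-fold higher (2.16 to 3.16). Coro1a was 4.84-fold higher (4.04 to 5.83), a ratio that became 8.71 when floor cell 4 of 21 hpf was left out and 7.94 when cell 5 was. Within the Arp2/3 complex 6 of 13 genes were higher at 28 hpf and 2 lower. Pfn2 was 2.79-fold lower and pfn2l 3.09-fold lower at 28 hpf, and the log2 ratio of pfn2l was -0.51 without the cells of endothelial share, that of pfn2 -0.92 without title part M12. Coro1a had 1.62 in place of 2.28 without that part. The erythroid sums of the floor were close at the stages, and the pan-endothelial sum was lower at 28 hpf, as given above. By cell the erythroid share was not alike, with a median of 0.191% at 28 hpf and 0.485% at 21 hpf. Single cells weigh on the sums, since the highest had 9.34% at 28 hpf (cell 11) and 9.39% at 21 hpf (cell 15). The part of the cells picked in these ratios was not tested.

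In roof cells 44 genes were measured, 8 of them higher at 28 hpf and 19 lower, with a median of -0.82, beside 22.5% higher and 35.0% lower among all genes and a median of -0.34. DESeq2's size factors gave 10 higher and 13 lower. The Arp2/3 genes were lower as a group, with 8 of 14 lower at 28 hpf and 1 higher. Arpc1a was 5.74-fold lower (5.05 to 6.54), arpc2 2.50-fold lower and actr2a 2.45-fold lower at 28 hpf. All 3 profilin genes were lower, pfn1 by 3.31-fold (2.95 to 3.71) and pfn2l by 2.49-fold, and cfl1 was 3.12-fold lower (2.96 to 3.29). Diaph2 was 4.31-fold higher at 28 hpf (3.26 to 5.76), with 90.0 CPM in roof cells of 28 hpf and 20.9 CPM in those of 21 hpf. Tmsb4x was 2.93-fold higher (2.82 to 3.06), with 3198 CPM at 28 hpf and 1090 CPM at 21 hpf. Daam1a and fmnl3 were within 2-fold, with 120.5 CPM and 215 CPM at 28 hpf and 131 CPM and 216 CPM at 21 hpf. Coro1cb was 2.31-fold lower at 28 hpf (1.91 to 2.81), but its log2 ratio of -1.21 was -0.89 without roof cell 3 of 21 hpf, -1.80 without roof cell 7 of 28 hpf and -0.98 with DESeq2's size factors. Without title part 3 it was -2.91, and the log2 ratios of actr2a and pfn2l were -1.96 and -1.92 in place of -1.29 and -1.31. The pan-endothelial sum of the roof cells was 22070 CPM at 28 hpf and 26450 CPM at 21 hpf. Over 8 epidermal markers, nearly all of it krt8 and krt18a.1, it was 12020 CPM at 28 hpf and 4176 CPM at 21 hpf, and in floor cells 161 CPM and 2274 CPM at those stages. Floor cell 3 of 21 hpf, 1 of the 4 of endothelial share, had 2.79% of its counts there. The part of these genes in the ratios was not tested.

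Other genes of the actin machinery were read from lists of related genes. Their counts stand beside 35.0% higher and 35.6% lower in floor cells among all genes at 28 hpf, and 32.7% higher and 25.5% lower at 21 hpf, and several lie near those shares. Of the partners and regulators of the Arp2/3 complex, 5 of 18 genes were higher in floor cells and 9 lower at 28 hpf, and 6 of 19 higher and 11 lower at 21 hpf, with medians of -1.58 and -1.02. Cyfip1, a subunit of the WAVE complex, was 5.04-fold lower in floor cells at 21 hpf, with 75.8 CPM in floor cells and 382 CPM in roof cells, and cttn, the cortactin gene, was 3.85-fold lower. Of the actins, tropomyosins and crosslinkers, 6 of 19 were higher and 8 lower at 28 hpf, and 2 of 19 higher and 12 lower at 21 hpf, with medians of -0.82 and -1.79. Tagln2, a calponin-family gene of actin bundles, was 11.1-fold lower in floor cells at 28 hpf, with 181 CPM in floor cells and 2006 CPM in roof cells, and 4.40-fold lower at 21 hpf, with 337 CPM in floor cells and 1480 CPM in roof cells. Fscn1a, a fascin gene, was 5.72-fold lower in floor cells at 21 hpf, with 311 CPM in floor cells and 1780 CPM in roof cells. The 6 that were higher at 28 hpf (actc1a, actc1b, actc1c, acta1b, tpm1 and tpm2) include muscle actins. In floor cell 6 of that stage 8.95% of counts fell on 22 muscle markers, and the list's median of -0.82 was -2.25 without that cell, while it turned to 0.39 without title parts M12 and 3.

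Of the cofilin regulators and genes of filament turnover, 2 of 13 were higher in floor cells and 7 lower at 28 hpf, and 4 of 11 higher and 5 lower at 21 hpf, with medians of -1.47 and -0.74. Gsna, a gelsolin gene, and scinla, a scinderin gene, both of which sever and cap filaments, were at 0 in floor cells of 28 hpf, with 121 CPM and 76.5 CPM in roof cells, at least 96.8-fold and 61.2-fold lower. Of the other nucleators, elongators and caps, 4 of 10 were higher and 4 lower at 28 hpf, and 3 of 10 higher and 2 lower at 21 hpf, counts close to the shares among all genes, with medians of -0.46 and 0.11. The median at 21 hpf was 1.47 with raw sums, 0.71 with means per cell and 0.69 with another seed. Capgb, a gene for a gelsolin-like cap, and add3a, an adducin gene, were at 0 in floor cells of 28 hpf, with 126.5 CPM and 96.5 CPM in roof cells. These lists were drawn up with earlier results of these data known. Between stages in the floor, 6 of 21 Arp2/3 partners were higher at 28 hpf and 9 lower, beside 16.7% and 42.0% among all genes. Abi1a, a WAVE complex gene, was there 3.71-fold higher. In the roof 7 of 12 cofilin regulators were higher at 28 hpf and 1 lower, beside 22.5% and 35.0% among all genes. Vaspb, a VASP gene, was 3.66-fold higher in roof cells at 28 hpf. Actb2, a cytoplasmic actin gene, was 2.68-fold higher, with 25010 CPM at 28 hpf and 9351 CPM at 21 hpf.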

How the data were processed

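The authors deposited 1 table of whole-number read counts per gene and cell. Per the submitters' processing notes, Trim Galore, STAR and the builds GRCz11 and danRer11 were used. Versions, gene annotation, strand setting and the handling of reads that match several copies of a gene were not given in the sources used here. CPM (counts per 1000000) were computed here from these deposited counts. Each cell was thinned at random to 200000 counts with seed 1, which leaves out roof cell 9 of 21 hpf with 129849 counts, while per-cell CPM uses all counts and all 58 cells. A gene was measured in a comparison if its thinned reads over the groups compared numbered 10 or more, and detected in a cell from 5 thinned reads on. Ratios have exact binomial, levels exact Poisson and shares exact Clopper-Pearson intervals. The limit for a count of 0 is 3 counts, except for 0 of 4 cells, where the upper end of the exact interval is given.

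The embryos are not named, so no replicate test was made and 2-fold is a threshold of size. Cells of 21 hpf are numbered by their titles, those of 28 hpf in the order of the sample list. The cells were picked by hand and doublets were not called, so RNA from a second cell was not tested for. Floor cell 6 of 28 hpf, with 8.95% of its counts on muscle markers, stayed in the floor sums of that stage. Members and lists were chosen with earlier results of these data known, and 1 list is not reported here. Genes named in full were coro1cb, daam1a, coro1a, arpc1b and pfn1, and members with at least 50 CPM in the higher group that passed 2-fold there and kept it, within 1.5 times, when any 1 cell was left out. Members named by this rule also passed 2-fold in raw sums and in means per cell, and were detected in at least 1 of 3 cells of the higher group. Other genes were named to account for a count or a family. Cflara and cflarb match the symbol rule but encode regulators of cell death, not cofilins. Alternatives were other scalings (TMM of edgeR, size factors of DESeq2), raw sums, means per cell, another seed, other minimum counts, a pseudocount, leaving out each cell, floor cells by marker share and title parts. The steps were tested on simulated data with 200 changed genes of 35117. For floor against roof at 28 hpf the median log2 ratio came out at 0.97 where 0.98 had been set, and 97.5% of intervals held the set value. Over all comparisons this share ran from 94.5% to 97.5%. Simulated cells of a group shared 1 profile, so the check covers counting error and not differences between cells. Tools were Python 3.11.15, numpy 2.4.6, pandas 2.3.3, scipy 1.17.1, matplotlib 3.10.9, R 4.3.3, edgeR 4.0.16 and DESeq2 1.42.0.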

Additional observations from a re-analysis of the deposited data

Results flagged for a closer look

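In the roof cells of 28 hpf, a single cell stood far above the others in 4 of the 25 genes looked at. The rule flags about 1 in 20 by chance only where levels are normally distributed, which per-cell CPM is not. No excess is therefore read from the 4. Actr2a had 636.5 CPM in roof cell 10, and the next cell had 208 CPM. Arpc4 had 218.8 CPM in roof cell 6 and 89.3 CPM in the next. Daam1b had 75.69 CPM in roof cell 5 and 3.89 CPM in the next. Fmnl3 had 715.4 CPM in roof cell 7 and 310.5 CPM in the next. Only groups of 10 cells or fewer were looked at in this way, so the other 3 groups were not.

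Members of the Arp2/3 complex that took opposite sides at the stages were arpc4 and the actr3 gene ENSDARG00000100510, which encodes the actin-like subunit Arp3. The log2 ratio of floor over roof for arpc4 was 1.294 at 28 hpf and -1.281 at 21 hpf. For this actr3 gene it was 1.344 at 28 hpf and -1.32 at 21 hpf, where the value of 21 hpf was -0.91 without the erythroid-rich floor cells. A second entry named actr3, ENSDARG00000091138, had 0.89 at 28 hpf, within 2-fold, and -1.06 at 21 hpf. The difference between the stages was not tested.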

How the results depend on the processing

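No paired analysis was possible because no test was made and the replicate numbers name single cells that no label ties together across groups. Of 52 called gene ratios, 0 reversed under any alternative and 11 fell below 2-fold in at least 1 setting. Apart from coro1cb, daam1a, coro1a, arpc1b and pfn1, genes entered only if 2-fold held in raw sums, means per cell and without any 1 cell. For those settings the lack of reversals follows from the naming rule and is no sign of stability. With a minimum of 50 reads, 4 actin genes in place of 7 were higher in floor cells at 21 hpf, and 4 in place of 8 were higher in roof cells at 28 hpf than at 21 hpf. The median log2 ratio of floor over roof at 21 hpf was -1.01 with the erythroid-rich floor cells left out, and that of 28 over 21 hpf in the floor was 0.56 without the floor cells of endothelial share. Leaving out 1 cell at a time, the genes higher in floor cells numbered 8 to 11 at 28 hpf and 4 to 7 at 21 hpf, with 4 without floor cell 8, and the lower ones 22 to 25 and 29 to 30. The medians ran between -1.46 and -1 at 28 hpf and between -1.73 and -1.42 at 21 hpf. Between stages the higher genes numbered 9 to 14, the lower ones 13 to 17 and the median -0.38 to 0.09 for floor cells. For roof cells these were 7 to 10, 17 to 20 and -0.89 to -0.67. DESeq2's size factors moved all log2 ratios between stages by 0.24 in the floor, with 14 genes higher and 13 lower, and by 0.22 in the roof. The roof ratio of capza1b was then -0.96. Other list medians moved with settings too: that of the Arp2/3 partners at 28 hpf was -0.55 with another seed and -0.63 without roof cell 4, that of the other nucleators -1.85 without floor cell 6, and that of the cofilin regulators -0.77 without roof cell 6. No cell had under 2000 genes, so leaving out such cells gave no value. At 200000 counts per cell, 3 reads in a group of floor cells of 28 hpf are worth 1.25 CPM, under which no difference was detectable.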
